A study of Mus musculus with 35 samples.

Results

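The granular layer of mouse back skin was set against the basal layer beneath it, in 9 of the 35 libraries of the series, chosen by their group labels alone. The 3 granular libraries came from cells sorted as granular layer, with no division by label. The 6 basal libraries came from basal layer cells, 3 from label-retaining cells (LRC, described as slow-cycling) and 3 from cells that had lost the label (nLRC, described as fast-cycling). The mice behind all 9 libraries were 2 months old, of strain C57BL/6J and transgenic for both K5-tTA and pTRE H2B-GFP, and ate doxycycline chow for 2 weeks. In this system the keratin 5 promoter drives a histone-GFP fusion, doxycycline stops its production, and each division then dilutes the label, so granular and basal cells alike came from transgenic mice on doxycycline. Libraries numbered 1 to 3 occur in each group. Whether these are separate animals is not stated in the labels, and p-values then cover only the spread between libraries.

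Basal keratinocytes sit on the basement membrane, held by integrins and hemidesmosomes, contain keratins 5 and 14, and are the dividing cells of the epidermis. Cells that leave the membrane switch to keratins 1 and 10 in the spinous layer. In the granular layer, the last living one, they make the proteins and lipids of the cornified envelope and seal the tissue with tight junctions before they lose their nuclei.

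Gene reads numbered 14363365 to 19392109 per granular library and 14463777 to 20560481 per basal library. Ribosomal and 7SL RNA features held 9.50 to 11.4% of reads in granular libraries and 9.24 to 13.2% in basal ones. Levels are given as TMM-scaled CPM (reads relative to library size), and levels of different genes are compared only as TPM, which is per transcript length. Xist was at 1823 CPM in granular library 1 and at 1932 and 2037 CPM in the basal libraries numbered 1, but below 1 CPM in all numbered 2 or 3. Libraries of the same number also deviated together over all genes, so the replicate number was kept as a block in the test.

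The data separated the layers over a large part of the genes. Of 15450 genes tested, 6100 (39.5%) passed edgeR's quasi-likelihood test at an adjusted p under 0.05. Granular libraries were higher in 3122 genes (20.2%) and lower in 2978 (19.3%). Among these, 1456 genes (9.42%) were at least 2-fold higher and 1394 (9.02%) at least 2-fold lower. Every granular library lay above every basal library in 2423 genes (15.7%) and below every basal library in 2259 genes (14.6%). These shares are the background against which the counts of each gene group below are read. A gene nearly absent from either layer entered the test only through the other, and could hardly change the opposite way. The libraries are sorted bulk samples, in which fewer cells of a type and less RNA per cell cannot be told apart.

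The layer markers followed the labels, with exceptions among the late ones. Flg, which encodes filaggrin, the protein that bundles keratin in the dying cell, had 143, 469.6 and 62.3 CPM in granular libraries, against 3.89 to 21.5 (median 17.1) CPM in basal libraries. The groups did not overlap, and the log2 fold change was 3.90 ± 0.26 (SE, adjusted p = 5.52e-07). Ivl, which encodes the envelope protein involucrin, had 46.1, 67.3 and 31.6 CPM in granular libraries, against 1.31 to 3.66 (median 2.65) CPM in basal libraries, again without overlap (log2 fold change 4.28 ± 0.18, adjusted p = 2.16e-08). Lor, which encodes loricrin, the main protein of the cornified envelope, had 40.7, 86.6 and 5.91 CPM in granular libraries, against 0.915 to 8.19 (median 7.25) CPM in basal libraries. Granular library 3 fell within the basal range for Lor, although the gene passed the test (log2 fold change 2.68 ± 0.29, adjusted p = 2.42e-05). The basal libraries numbered 3 were also the lowest of their groups for Lor and Flg. Of the 6 granular markers, Lor, Flg, Ivl, Flg2 and Casp14 were higher and Tgm3, a transglutaminase that the hair follicle also makes, was lower, with 11.2, 11.9 and 12.3 CPM in granular libraries, against 12.4 to 112 (median 37.1) CPM in basal libraries (log2 fold change -1.65 ± 0.38).

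The layer keratins moved in opposite directions. Krt10 had 10364, 8665 and 8088 CPM in granular libraries, against 1416 to 2607 (median 1573) CPM in basal libraries (log2 fold change 2.36 ± 0.16, adjusted p = 5.02e-07). Krt5 had 1398, 1468 and 2374 CPM in granular libraries, against 15788 to 18375 (median 16398) CPM in basal libraries (log2 fold change -3.30 ± 0.19, adjusted p = 1.63e-07). Neither gene's groups overlapped, yet each gene was present on both sides. Per transcript length, Krt10 averaged 21547 TPM in granular libraries, against 4267 TPM in basal libraries, and Krt5 averaged 3989.9 TPM in granular libraries, against 38905 TPM in basal libraries. Loricrin transcripts stood far below both keratins even in the granular layer, at a mean of 125 TPM in granular libraries, against 14.9 TPM in basal libraries. Itga6, an integrin subunit that anchors basal cells, had 196, 192 and 252 CPM in granular libraries, against 661 to 822 (median 722) CPM in basal libraries (log2 fold change -1.79 ± 0.12). Mki67, a marker of dividing cells, had 30.4, 45.8 and 28.7 CPM in granular libraries, against 112 to 151 (median 128) CPM in basal libraries (log2 fold change -1.92 ± 0.15).

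**Figure D1:**
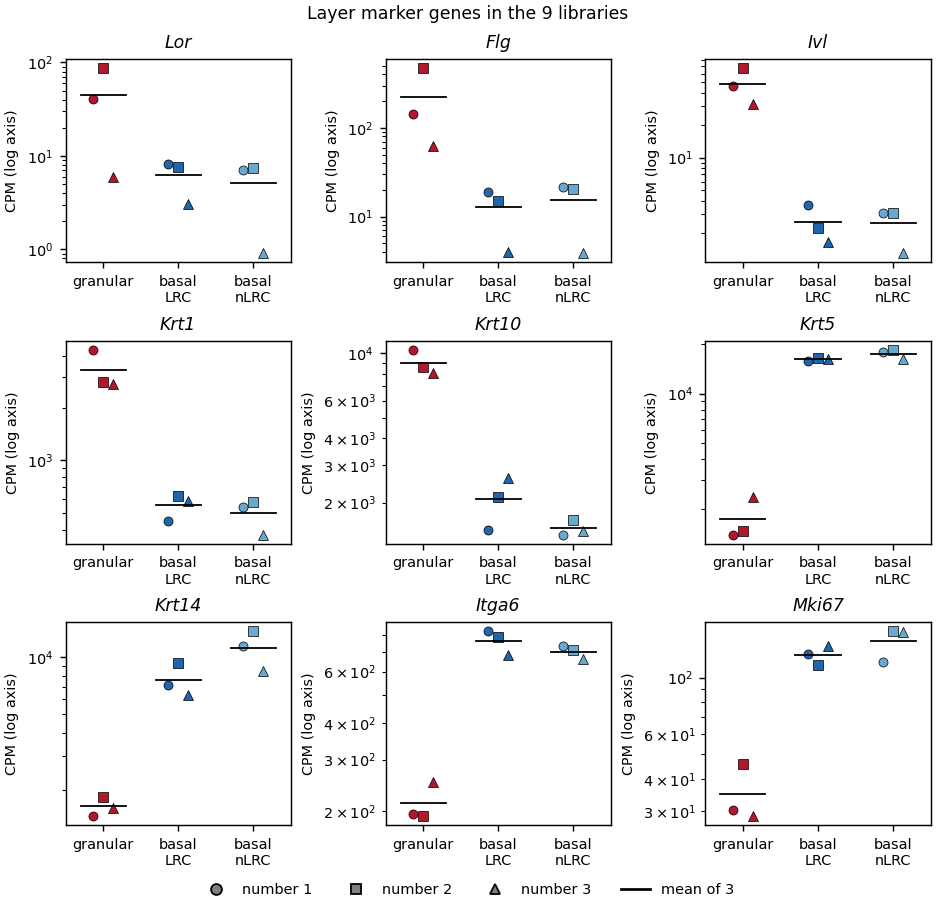
Scaled CPM (log axes, each panel with its own range) of 9 layer marker genes in the 3 granular, 3 basal LRC and 3 basal nLRC libraries, with symbols for the replicate number and bars for group means. The groups overlap for Lor, where granular library 3 (5.91 CPM) lies within the basal range, and for none of the other 8 genes.

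Markers of several, though not all, other cell types were higher in the granular group. They are given here because they stand beside every rise below. Of 12 markers of the upper hair follicle and infundibulum, 11 were higher in granular libraries and none lower, with a summed level of 5071 to 7843 CPM in granular libraries, against 383 to 764 CPM in basal libraries. Krt79, a keratin of the infundibulum, had 2311, 3439 and 1973 CPM in granular libraries, against 17.6 to 80.7 (median 34.7) CPM in basal libraries, and Krt17, a keratin of the follicle's outer sheath, had 1959, 2893 and 1919.7 CPM in granular libraries, against 76.5 to 163 (median 99.9) CPM in basal libraries. Gata6 (log2 fold change 3.50 ± 0.21) and Sox9 (2.87 ± 0.21), transcription factors of the upper follicle and of the outer sheath, were higher too. Krt79 and Krt17 were among the most abundant transcripts of the granular libraries, and neither overlapped its basal range.

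Sebocyte markers summed to 1422 to 1779.5 CPM in granular libraries, against 588 to 1145 CPM in basal libraries, with 11 of 13 tested members higher and none lower. Both were below the spinous nLRC libraries of the same series, at 4862 to 9820.4 CPM. Pparg, the fat cell and sebocyte regulator, passed the edgeR test (log2 fold change 2.02 ± 0.25) but not against the nLRC libraries alone (log2 fold change 0.23, adjusted p = 0.461), nor with limma on TPM (1.02, adjusted p = 0.061). Markers of the inner root sheath and hair shaft summed to 106 to 137 CPM in granular libraries, against 19.7 to 39.5 CPM in basal libraries, with 8 of 11 tested members higher and 1 lower. Krt35, a hair shaft keratin, was among the higher ones (log2 fold change 3.76 ± 0.61). Krt83, another, had 9, 13 and 9 reads in granular libraries, against at most 2 in any basal library, too few to test. Hair shaft keratins did not all rise. Krt33a, also untested, had 1, 2 and 5 reads in granular libraries, against up to 17 in a basal one. Krt31 did not pass the test, and Krt32, a type I keratin outside this list, was lower. Krtap3-1, Krtap8-1 and Krt34, also proteins of the hair shaft, had 0 reads in all 9 libraries.

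Langerhans and other myeloid markers were higher for all 7 members tested, at a summed 56.6 to 221 CPM in granular libraries, against 12 to 55.3 CPM in basal libraries. Cd207, the langerin of Langerhans cells, had only 2.73, 7.22 and 2.41 CPM in granular libraries, against 0 to 0.788 (median 0.231) CPM in basal libraries. Granular library 2 was the highest for each of Cd207, Cd74, Csf1r and Ptprc, and Ptprc missed the threshold without it (adjusted p = 0.0606). The same library held all 134 granular reads of Col1a1, a fibroblast collagen, against at most 8 reads in a basal library. Of 4 erythroid genes tested 2 were higher. These were Hba-a1 and Hba-a2, which can share reads (log2 fold change 5.41 ± 0.99 and 3.16 ± 0.24). Hbb-bs and Alas2 (log2 fold change -0.22 ± 0.64 for Alas2) did not pass the edgeR test, and Hbb-bt had 0 reads in all 9 libraries. Of 5 melanocyte markers tested 1 was higher and 1 lower, of 5 T cell markers 4 were higher and 1 lower, of 2 endothelial markers 1 was higher, and neither muscle marker passed. The lower T cell marker was Thy1. The 5 T cell markers summed to 8.98 to 26.6 CPM in granular libraries, against 71.1 to 128.5 CPM in basal libraries. Merkel cell markers did not reach the test, with at most 16 reads in any library. The part of these cells in the differences between layers was not tested.

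**Figure D2:**
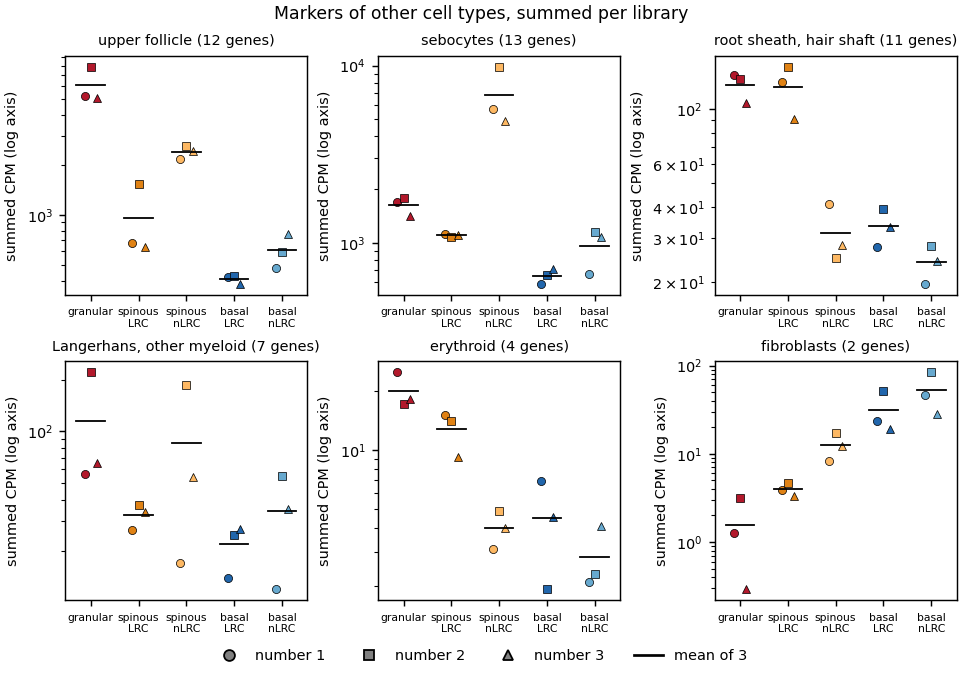
Summed scaled CPM (log axes) of the tested marker genes of 6 other cell types in each granular, spinous LRC, spinous nLRC, basal LRC and basal nLRC library, with symbols for the replicate number and bars for means of 3. Upper follicle markers sum to 5071 to 7843 CPM in granular libraries, above all spinous and basal libraries, whereas sebocyte markers are highest in spinous nLRC libraries.

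In the epidermal differentiation complex 22 of 35 tested genes were higher, and 4 genes, all of the S100 family, were lower. This cluster on chromosome 3 (90511034 to 93564643 of GRCm38, the mm10 build) holds the envelope genes Lor, Ivl, the Sprr and Lce families, the filaggrin group and, at its ends, S100 genes for calcium-binding proteins. Of its 120 genes, 35 were expressed enough to test, of which 9 were neither higher nor lower, with a median log2 fold change of 2.67, against -0.027 over all genes tested. Genes hardly read in basal libraries entered these counts only through granular ones, so count and median partly follow from the filter. Of the 9 S100 genes tested there, 4 were lower, 4 were neither, and S100a16 was higher (log2 fold change 0.48 ± 0.094). S100a6 had 8.14, 14.9 and 15.4 CPM in granular libraries, against 36.6 to 63.9 (median 46.1) CPM in basal libraries (log2 fold change -1.93 ± 0.15). S100a10, a partner of annexin A2, had 48.7, 45.7 and 85.3 CPM in granular libraries, against 133 to 208 (median 195) CPM in basal libraries (log2 fold change -1.65 ± 0.14). The whole cluster took 0.157, 0.277 and 0.0958% of reads in granular libraries, against 0.0623 to 0.0843% in basal libraries. The groups did not overlap, and an exact permutation test that exchanged all 9 libraries without regard to replicate number gave p = 0.0238, two-sided, the smallest that 3 against 6 libraries allow, which became 0.0595 after adjustment over 5 such library values. The difference of means was 0.106 percentage points, and 0.0556 without granular library 2.

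Sprr4 and Sprr1a of this cluster had the largest rises among genes that did not overlap between groups and averaged 3 or more in log2 CPM. Larger fitted changes occurred at lower levels, such as that of the kallikrein gene Klk6 (log2 fold change 8.93 ± 0.61), whose basal libraries held 0.145 CPM or less. Sprr4, a small proline-rich envelope protein gene, had 21.5, 37.1 and 34.9 CPM in granular libraries, against 0 to 0.471 (median 0.217) CPM in basal libraries, a 142-fold difference (log2 fold change 7.15 ± 0.36, adjusted p = 7.41e-08). Sprr1a, its relative, had 65.3, 122 and 53.4 CPM in granular libraries, against 0.488 to 1.07 (median 0.572) CPM in basal libraries (log2 fold change 6.85 ± 0.25, adjusted p = 1.09e-08). Neither overlapped, as that rule required, and basal levels were close to 0, so the fold rests on few reads. The families as a whole were sparsely read. Of 37 Sprr and Lce genes 36 were in the tables and 10 could be tested, of which 8 were higher and none lower. The other 26 reached at most 40 reads in any library. A gene nearly absent from basal libraries, such as Sprr4, passed the low count filter only through the granular ones. Such a gene could hardly come out lower, so the absence of lower members is partly set by the filter. Lce1m, a late envelope gene, had 14.8, 30.3 and 1.68 CPM in granular libraries, against 0 to 3.43 (median 1.57) CPM in basal libraries, with granular library 3 within the basal range. Reads of near-identical Sprr2 and Lce copies may have been divided between them.

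The 250 bases upstream of the start (RefSeq, GRCm38.p6) are shown for the 2 largest rises, for the 3 envelope markers and for a keratin of each layer, because 22 of the 35 tested genes of the cluster were higher. Capitals mark 3 motifs searched on both strands, the AP-1 site TGANTCA, the TATA box TATAAA and the KLF site GGGTGTGG. The GRHL site AACNGGTT was also searched for and stood in none of the 7. No 2 marked motifs overlap.
Sprr4 (chr3:92500494-92500743, minus strand): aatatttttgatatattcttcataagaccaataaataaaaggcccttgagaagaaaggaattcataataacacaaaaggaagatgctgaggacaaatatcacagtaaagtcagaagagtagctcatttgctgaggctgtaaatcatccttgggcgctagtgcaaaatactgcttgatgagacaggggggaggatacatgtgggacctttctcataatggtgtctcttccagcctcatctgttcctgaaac
Sprr1a (chr3:92485882-92486131, minus strand): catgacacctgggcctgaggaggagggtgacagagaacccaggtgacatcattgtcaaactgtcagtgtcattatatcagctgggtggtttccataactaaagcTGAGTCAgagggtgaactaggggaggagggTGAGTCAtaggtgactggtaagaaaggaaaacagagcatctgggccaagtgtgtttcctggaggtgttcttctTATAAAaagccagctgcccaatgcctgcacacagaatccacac
Lor (chr3:92083143-92083392, minus strand): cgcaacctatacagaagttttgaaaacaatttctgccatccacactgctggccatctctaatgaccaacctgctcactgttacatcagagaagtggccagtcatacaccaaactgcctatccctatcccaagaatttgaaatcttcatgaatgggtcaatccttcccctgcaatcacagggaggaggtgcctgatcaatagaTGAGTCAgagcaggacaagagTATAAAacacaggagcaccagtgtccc
Flg (chr3:93273296-93273545, plus strand): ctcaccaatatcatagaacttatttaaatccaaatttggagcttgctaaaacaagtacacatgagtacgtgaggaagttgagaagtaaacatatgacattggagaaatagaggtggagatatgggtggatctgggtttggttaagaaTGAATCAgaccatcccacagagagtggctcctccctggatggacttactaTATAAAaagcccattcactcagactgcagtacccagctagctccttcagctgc
Ivl (chr3:92573736-92573985, minus strand): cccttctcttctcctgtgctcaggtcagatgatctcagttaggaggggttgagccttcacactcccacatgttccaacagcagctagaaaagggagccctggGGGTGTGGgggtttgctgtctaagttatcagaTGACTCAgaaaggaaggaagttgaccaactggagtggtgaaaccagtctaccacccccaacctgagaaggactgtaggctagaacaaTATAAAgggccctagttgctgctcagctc
Krt10 (chr11:99389365-99389614, minus strand): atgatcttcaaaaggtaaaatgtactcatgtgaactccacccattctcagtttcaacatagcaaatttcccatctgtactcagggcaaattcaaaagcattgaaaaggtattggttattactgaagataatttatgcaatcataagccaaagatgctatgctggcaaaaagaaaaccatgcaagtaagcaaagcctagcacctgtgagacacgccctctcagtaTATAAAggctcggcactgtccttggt
Krt5 (chr15:101712906-101713155, minus strand): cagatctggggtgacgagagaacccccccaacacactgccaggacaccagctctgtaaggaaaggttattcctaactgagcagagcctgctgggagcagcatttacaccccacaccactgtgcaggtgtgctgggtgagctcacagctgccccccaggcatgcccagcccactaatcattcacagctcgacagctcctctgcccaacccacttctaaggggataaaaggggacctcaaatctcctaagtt

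Both an AP-1 and a TATA match stood in the windows of Sprr1a, Lor, Flg and Ivl, with the TATA match starting 43, 27, 53 and 29 bases before the start. Sprr4 and Krt5 held none of the 4 motifs, and Krt10 a TATA match alone, 26 bases before the start. Ivl also held a KLF match, 148 bases before the start. Among 16 higher genes of the cluster with a promoter in the table, 5 (31.2%) held AP-1, 7 (43.8%) TATA and 4 (25.0%) both. The 4 with both were Sprr1a, Lor, Flg and Ivl, shown above, so no further gene of the cluster adds to them. Over all 27025 promoters of the table the shares were 6.87%, 13% and 1.32%, and over the 11044 promoters of genes tested 4.61%, 6.77% and 0.48%. Among all genes higher in granular libraries the shares were 5.82%, 7.48% and 0.919%, and among all lower genes 4.52%, 6.11% and 0.226%. AP-1 stood in 2 of 10 promoters of the largest rises and in 3 of 11 promoters of the largest falls. Among genes at least 2-fold higher the shares were 7.93%, 10.5% and 1.42%, and among those at least 2-fold lower 5.12%, 7.03% and 0.402%. The AP-1 share of the cluster was above that of all higher genes, and no difference in shares was tested. The GRHL letters stood in 1.71% and the KLF letters in 3.19% of all promoters. These letters describe the windows and show no binding.

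Outside that cluster, Cst6, a cystatin that inhibits cathepsins in the envelope, had 1764, 2826 and 2247 CPM in granular libraries, against 9.64 to 28.8 (median 22.3) CPM in basal libraries (log2 fold change 6.79 ± 0.17, adjusted p = 1.84e-09). It was one of the strongest granular signals at a mean of 2919 TPM in granular libraries, against 26.3 TPM in basal libraries. Klk7, a kallikrein that cuts corneodesmosomes, had 185, 254 and 139 CPM in granular libraries, against 0.287 to 5.9 (median 4.96) CPM in basal libraries (log2 fold change 5.83 ± 0.3, adjusted p = 8.94e-08). Defb6, a beta-defensin, had 218, 345 and 337 CPM in granular libraries, against 1.95 to 12.1 (median 4.62) CPM in basal libraries (log2 fold change 5.91 ± 0.16). None of the 3 overlapped its basal range, which the rule for the largest rises required.

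Cldn4, a claudin of tight junctions, had 48.9, 77.8 and 54 CPM in granular libraries, against 0.358 to 3.68 (median 1.05) CPM in basal libraries (log2 fold change 5.55 ± 0.22, adjusted p = 1.92e-08). Gsdma, a gasdermin that can form membrane pores, had 66.8, 93.8 and 70.1 CPM in granular libraries, against 0.215 to 2.77 (median 1.63) CPM in basal libraries (log2 fold change 5.68 ± 0.28). Myo5b, a myosin motor of vesicle transport, had 95.5, 146 and 91.5 CPM in granular libraries, against 1.08 to 3.1 (median 1.76) CPM in basal libraries (log2 fold change 5.81 ± 0.13). Nfatc2, a calcium-regulated transcription factor, had 110.1, 187 and 133 CPM in granular libraries, against 2.94 to 4.63 (median 3.84) CPM in basal libraries (log2 fold change 5.21 ± 0.15). All 4 separated the groups fully, which the rule for the largest rises required. The rest of the 15 were Slc46a2 (6.39), Krt79 (6.09), Krt6a (5.50), Sema6a (5.40), Pdzrn3 (5.32) and Add2 (4.97), given as log2 fold changes. Most of the 15, Sprr4, Sprr1a, Krt79, Cst6 and Defb6 among them, also stood higher in spinous nLRC than in spinous LRC libraries by mean log2 level. Cldn4, Gsdma, Myo5b, Nfatc2 and Add2 stood lower there. Krt79 had means of 338 CPM in spinous LRC and 969.5 CPM in spinous nLRC libraries.

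**Figure D3:**
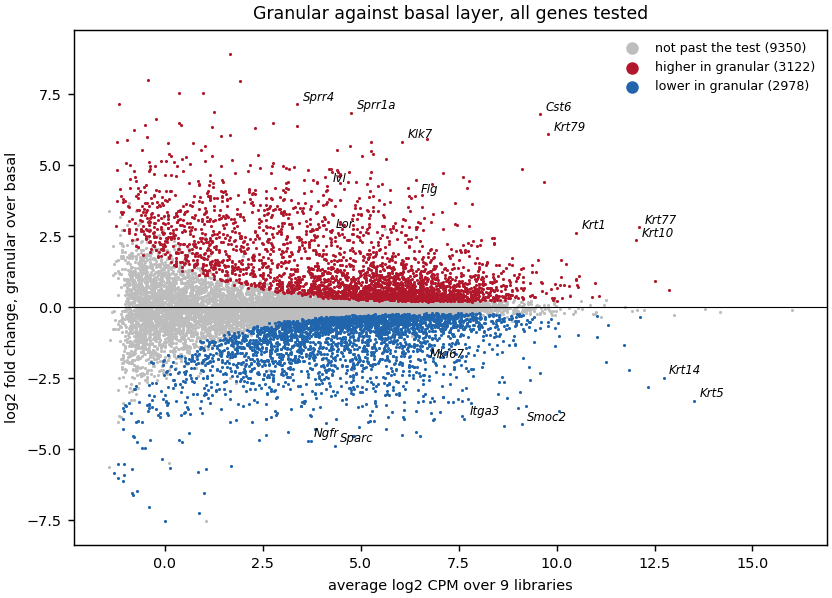
Log2 fold change of granular over basal libraries against average log2 CPM for 15450 genes, with genes past the test in red (3122 higher) and blue (2978 lower) and the others in grey. Abundant keratin genes stand on both sides, Krt77 and Krt10 above the zero line and Krt5 and Krt14 below it.

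Suprabasal keratins were higher in 9 of 11 tested members and lower in none, with a median log2 fold change of 2.63. Krt77, a suprabasal type II keratin, had 11126, 10375 and 9479 CPM in granular libraries, against 1102 to 1921 (median 1375) CPM in basal libraries (log2 fold change 2.82 ± 0.14, adjusted p = 7.01e-08). Krt78 had 103, 107 and 114 CPM in granular libraries, against 2.46 to 5.44 (median 3.97) CPM in basal libraries (log2 fold change 4.76 ± 0.14). Krt1 had 4319, 2809.7 and 2755 CPM in granular libraries, against 375 to 621 (median 558) CPM in basal libraries. Krt6a, a keratin of the follicle and of wounds, was also in this list and in the largest rises. Krt2 reached 33.9 CPM in granular library 1 and 4.5 or less in the other two, against 0 to 1.52 (median 0.788) CPM in basal libraries, and missed the threshold without library 1 (adjusted p = 0.163).

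Cornified envelope proteins and transglutaminases were higher in 25 of 27 tested members, lower in 1 (Tgm3), with a median of 2.68. Sbsn, suprabasin, had 574, 701 and 495 CPM in granular libraries, against 32 to 61.8 (median 52.8) CPM in basal libraries (log2 fold change 3.62 ± 0.14). Krtdap, a secreted protein of differentiating cells, had 528, 466.2 and 543 CPM in granular libraries, against 59.2 to 100.2 (median 65.5) CPM in basal libraries (log2 fold change 2.85 ± 0.12). Hrnr, hornerin of the filaggrin group, had 89.7, 131 and 21.4 CPM in granular libraries, against 2.44 to 12.7 (median 9.79) CPM in basal libraries (log2 fold change 3.24 ± 0.13). For Hrnr, as for Lor and Flg, granular library 3 was the lowest of its group, whereas Sbsn and Krtdap varied little among granular libraries. Tgm1, the transglutaminase that crosslinks the envelope, had 17.9, 35.4 and 18.9 CPM in granular libraries, against 0.229 to 2.77 (median 1.2) CPM in basal libraries (log2 fold change 4.17 ± 0.38). Rptn, repetin, could not be tested, with at most 47 reads in a granular library and 2 in a basal one.

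Barrier lipid genes were higher in 31 of 35 members and lower in 1, with a median of 2.01. Abca12, the transporter that loads lipids into lamellar granules, had 739, 664 and 709.9 CPM in granular libraries, against 102 to 216 (median 148) CPM in basal libraries (log2 fold change 2.23 ± 0.095, adjusted p = 2.54e-08). Alox12e, a lipoxygenase, had 1323, 1708 and 1648 CPM in granular libraries, against 21.4 to 121 (median 60.1) CPM in basal libraries (log2 fold change 4.87 ± 0.2). Elovl4, which elongates very long chain fatty acids, had 476, 388 and 344 CPM in granular libraries, against 32.6 to 76.9 (median 51.1) CPM in basal libraries (log2 fold change 2.94 ± 0.14). The ranges of all 3 were far apart. Cyp4f39 (log2 fold change 3.14 ± 0.13), Pnpla1 (2.66 ± 0.12) and Alox12b (4.17 ± 0.28), enzymes of the acylceramide pathway, were higher as well. Asah1, an acid ceramidase of lysosomes, was the lower member at 28.5, 24.6 and 25.8 CPM in granular libraries, against 35.8 to 45.7 (median 43.5) CPM in basal libraries. Cholesterol synthesis was higher in 19 of 22 members and lower in none, with a median of 1.14. Sqle, squalene epoxidase, had 100.4, 89.3 and 49.1 CPM in granular libraries, against 8.67 to 19.5 (median 10.7) CPM in basal libraries (log2 fold change 2.64 ± 0.12). The summed cholesterol list was higher still in spinous nLRC libraries, at 3277 to 6343 CPM, than in granular ones, at 1481 to 2327 CPM, as sebocyte markers were.

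Proteases and their inhibitors were divided, with 18 of 27 tested members higher, 2 lower and a median of 0.94. In the kallikrein cluster of chromosome 7, 5 of 9 tested genes were higher (Klk5, Klk6, Klk7, Klk8 and Klk10) and none lower. Klk5 had 47.4, 56.6 and 26.8 CPM in granular libraries, against 0.502 to 4.5 (median 3.25) CPM in basal libraries (log2 fold change 3.95 ± 0.22). Spink5, which encodes the kallikrein inhibitor LEKTI, had 206, 216 and 242 CPM in granular libraries, against 23 to 48.2 (median 33) CPM in basal libraries (log2 fold change 2.72 ± 0.092). Enzyme and inhibitor were thus both higher. Serpinb2 (-1.90 ± 0.14) and Ctsl (-1.63 ± 0.26) were the lower members, on the log2 scale. Among genes of nucleic acid breakdown, deimination and calmodulin-like proteins, 9 of 10 tested were higher, with Calml3 at 69.5, 88.9 and 60.6 CPM in granular libraries, against 1.15 to 4.16 (median 2.73) CPM in basal libraries, and Hal, histidase, at 122, 157 and 69.7 CPM in granular libraries, against 5.87 to 10.4 (median 8.07) CPM in basal libraries. The exception was Bnip3, a mitophagy receptor (log2 fold change -1.43 ± 0.12). None of the 4 Padi genes of the list, for deiminases, had enough reads to test, and Padi4 reached 53 reads in a granular library and 0 in every basal one.

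Of 16 tight junction genes 11 were higher and 3 lower, with a median of 0.97. Cgn, cingulin, had 46.5, 65.8 and 32.6 CPM in granular libraries, against 3.91 to 5.61 (median 4.74) CPM in basal libraries (log2 fold change 3.30 ± 0.15), and Ocln, occludin, had 69, 89.5 and 80.1 CPM in granular libraries, against 25.4 to 37.5 (median 31.2) CPM in basal libraries (log2 fold change 1.35 ± 0.086). Mpdz, a scaffold protein, went the other way at 4.04, 8.21 and 7 CPM in granular libraries, against 20.5 to 33.6 (median 27.4) CPM in basal libraries (log2 fold change -2.13 ± 0.24). Of 15 desmosome genes 11 were higher and 2 lower, with a median of 0.98. Dsc1 had 189.6, 282 and 228 CPM in granular libraries, against 5.89 to 13.7 (median 12.2) CPM in basal libraries (log2 fold change 4.49 ± 0.18), and Dsg1a had 2111, 1747 and 2316 CPM in granular libraries, against 500 to 885 (median 631) CPM in basal libraries (log2 fold change 1.68 ± 0.11). The lower members were 2 other desmogleins, Dsg2 with 31.5, 34.2 and 35 CPM in granular libraries, against 187 to 257 (median 213) CPM in basal libraries (log2 fold change -2.69 ± 0.11), and Dsg3 with 81.8, 101 and 164 CPM in granular libraries, against 271 to 359.9 (median 315) CPM in basal libraries (log2 fold change -1.50 ± 0.13). The desmosomal cadherins lie in 1 cluster on chromosome 18, in which 6 of 9 genes were higher and those 2 lower.

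Differentiation transcription factors were higher in 19 of 30 and lower in 3, with a median of 0.83. Zfp750, a zinc finger factor of terminal differentiation, had 316, 363 and 282 CPM in granular libraries, against 41.3 to 57 (median 47) CPM in basal libraries (log2 fold change 2.74 ± 0.078, adjusted p = 3.35e-09). Grhl1 had 558, 659 and 449 CPM in granular libraries, against 96.2 to 145 (median 121) CPM in basal libraries (log2 fold change 2.20 ± 0.07). Prdm1, which encodes the repressor Blimp1, had 9.09, 20.5 and 10.4 CPM in granular libraries, against 0.502 to 1.21 (median 0.65) CPM in basal libraries (log2 fold change 4.14 ± 0.26). Within 2 families the members diverged. Grhl3 (log2 fold change 2.05 ± 0.092) rose while Grhl2 fell by 0.45, and Ovol1 (2.31 ± 0.088) rose while Ovol2 fell by 1.3 on the same scale. Trp63, the p63 regulator of stratified epithelia, did not pass the edgeR test, with 1302, 1048 and 1339 CPM in granular libraries, against 1155 to 1705 (median 1453) CPM in basal libraries (adjusted p = 0.105). It was called lower with limma on TPM (log2 fold change -0.38, adjusted p = 0.0111) and without granular library 3 (adjusted p = 0.0161). Klf4, a barrier factor, rose modestly (log2 fold change 0.86 ± 0.13).

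Retinoid genes were higher in 12 of 16 tested members and lower in none, with a median of 2.31. Crabp2, which carries retinoic acid to the nucleus, had 44.4, 58.3 and 52.7 CPM in granular libraries, against 0.857 to 2.77 (median 2.05) CPM in basal libraries (log2 fold change 4.86 ± 0.23). Rbp2, a retinol-binding protein, had 34.5, 29.7 and 32.7 CPM in granular libraries, against 0.819 to 2.13 (median 1.38) CPM in basal libraries (log2 fold change 4.49 ± 0.22). The receptors Rara (-0.12 ± 0.092) and Rarg (0.10 ± 0.089) did not pass the test, at these log2 fold changes. Among 18 calcium channels, pumps and sensors 10 were higher and 2 lower, with a median of 0.39. Trpv3, a warmth-gated channel, had 71.2, 88.9 and 76.4 CPM in granular libraries, against 23.5 to 38.2 (median 27.9) CPM in basal libraries (log2 fold change 1.47 ± 0.11). Itpr2, a calcium release channel, was lower at 336, 334 and 420.4 CPM in granular libraries, against 714 to 1027 (median 813) CPM in basal libraries. Of 13 cytokine and defence genes tested 7 were higher and 1 lower. The lower one was Il33, an alarmin kept in the nucleus, with 6.3, 4.9 and 7.73 CPM in granular libraries, against 65 to 96.2 (median 81.5) CPM in basal libraries (log2 fold change -3.68 ± 0.14, adjusted p = 1.34e-08). Pglyrp4, a peptidoglycan recognition protein, had 36.4, 45 and 33 CPM in granular libraries, against 1.29 to 2.29 (median 1.65) CPM in basal libraries (log2 fold change 4.49 ± 0.19).

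**Figure D4:**
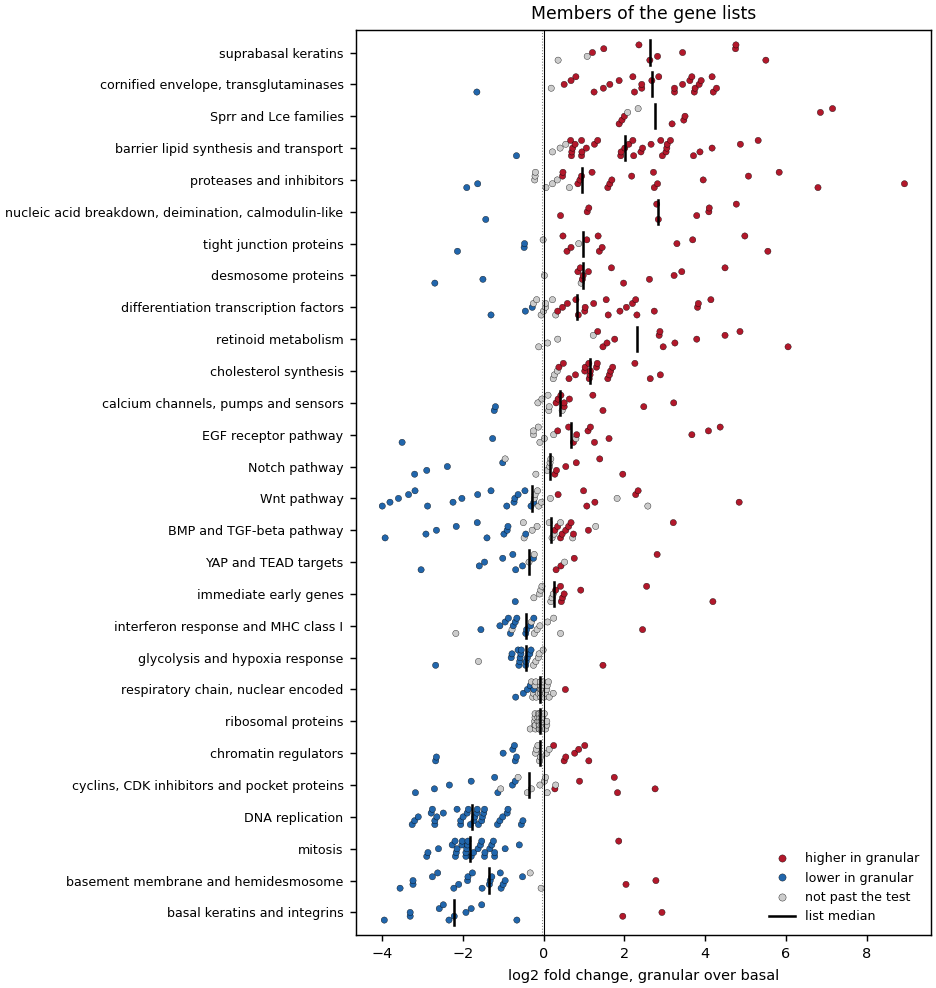
Log2 fold change of granular over basal libraries for each tested member of 28 gene lists, in red where higher, blue where lower and grey where not past the test, with a bar at each list's median. Barrier and differentiation lists lie to the right of zero, DNA replication, mitosis, basement membrane and basal keratin lists to the left, and ribosomal protein genes close to zero.

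Smoc2, a matricellular calcium-binding protein, had 33.1, 48.1 and 56.1 CPM in granular libraries, against 584 to 1043 (median 807) CPM in basal libraries (log2 fold change -4.12 ± 0.23, adjusted p = 1.26e-07). Antxr1, a collagen-binding receptor, had 17, 33.2 and 46.8 CPM in granular libraries, against 415 to 722 (median 611) CPM in basal libraries (log2 fold change -4.20 ± 0.32). Thbs2, a thrombospondin, had 2.73, 8.87 and 6.05 CPM in granular libraries, against 53.9 to 199.5 (median 122) CPM in basal libraries (log2 fold change -4.38 ± 0.26). Every granular library lay below every basal one for each of these, which the rule for the largest falls required.

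Sparc, a collagen-binding matrix protein, had the largest fall under the same rule, with 0.893, 1.46 and 0.292 CPM in granular libraries, against 9.46 to 68.4 (median 25.3) CPM in basal libraries (log2 fold change -4.89 ± 0.23, adjusted p = 4.68e-08). Ngfr, the low-affinity neurotrophin receptor, had 0.578, 0.331 and 1.09 CPM in granular libraries, against 8.35 to 29.1 (median 16.8) CPM in basal libraries (log2 fold change -4.70 ± 0.33). Phldb2, which links microtubules to focal adhesions, had 3.41, 5.69 and 7.73 CPM in granular libraries, against 74.7 to 189.8 (median 142) CPM in basal libraries (log2 fold change -4.53 ± 0.33). Sparc and Col6a1 are also the only 2 fibroblast markers that could be tested, and both were lower in granular libraries. These 2 summed to 0.292 to 3.11 CPM in granular libraries, against 19 to 83.9 CPM in basal libraries. Several untested fibroblast markers went the other way on few reads. Dcn had 40, 42 and 6 reads in granular libraries, against at most 8 in any basal library, and Col1a1 had 0, 134 and 0 reads in granular libraries, against at most 8 in any basal library. Col1a2, Col3a1 and Col6a2 were also highest in granular library 2, with 43, 24 and 32 reads there, against at most 7, 6 and 14 in any basal library. Their part in the other values of that library was not tested. Others of the 15 were Cysltr1 (-4.72), Slc2a5 (-4.52), Serpinb10 (-4.51), Col6a1 (-4.40), Phka1 (-4.30), Ackr3 (-4.28), Efemp1 (-4.22) and Abcg2 (-4.09), given as log2 fold changes. Serpinb10 overlaps Serpinb2 on the same strand, so their reads cannot be told apart with certainty.

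**Figure D5:**
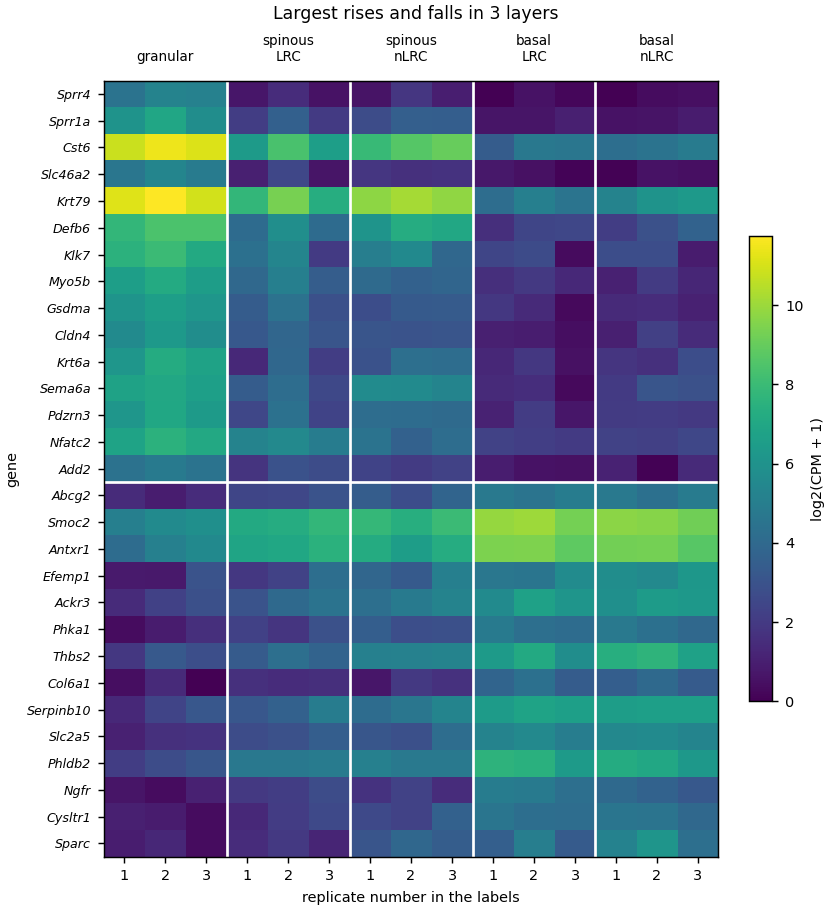
Log2(CPM + 1) of the 15 largest rises and of 14 of the 15 largest falls (rows, from the highest to the lowest fold change) in 15 libraries of the granular, spinous LRC, spinous nLRC, basal LRC and basal nLRC groups, numbered by replicate. Rises are brightest in the granular columns and falls in the basal columns, with the spinous columns between them in most rows.

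Basal keratins and integrins were lower in 11 of 13 tested members, with a median of -2.21. Krt14 had 1454, 1842 and 1613 CPM in granular libraries, against 6332 to 13649.6 (median 8871) CPM in basal libraries (log2 fold change -2.48 ± 0.14). Itga3, the laminin-binding partner of Itgb1, had 13, 27.9 and 16.8 CPM in granular libraries, against 179.9 to 379 (median 283) CPM in basal libraries (log2 fold change -3.94 ± 0.18, adjusted p = 3.67e-08). Itgb1 itself had 29.7, 34.4 and 48.8 CPM in granular libraries, against 169 to 206 (median 187) CPM in basal libraries (log2 fold change -2.34 ± 0.13). The beta subunits Itgb5 and Itgb8, which pair with integrin alpha v, went the other way. Itgb5 had 429, 393 and 375 CPM in granular libraries, against 90.3 to 117 (median 100.8) CPM in basal libraries (log2 fold change 1.96 ± 0.075), and Itgb8 had 49.9, 64.6 and 33.7 CPM in granular libraries, against 2.65 to 21 (median 5.49) CPM in basal libraries (log2 fold change 2.93 ± 0.27). Neither overlapped.

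Basement membrane and hemidesmosome genes were lower in 19 of 23 tested members and higher in 2, with a median of -1.34. Lamb3, a laminin 332 chain, had 46.5, 62.2 and 88.6 CPM in granular libraries, against 646 to 798 (median 767) CPM in basal libraries (log2 fold change -3.55 ± 0.15). Col17a1, the hemidesmosomal collagen, had 1078, 828 and 1388 CPM in granular libraries, against 4378 to 5533 (median 4929) CPM in basal libraries (log2 fold change -2.22 ± 0.16). Col7a1, the anchoring fibril collagen, had 28.1, 19.6 and 35.6 CPM in granular libraries, against 225 to 283 (median 261) CPM in basal libraries (log2 fold change -3.23 ± 0.14). The 2 higher genes, Fras1 (2.04 ± 0.44) and Nid1 (2.78 ± 1), were low, and Nid1 had 0.63, 3.64 and 0.292 CPM in granular libraries, against 0 to 2.29 (median 0.388) CPM in basal libraries, with overlap. Nid1 passed narrowly (adjusted p = 0.0481) and had a log2 fold change of -0.18 against nLRC libraries alone, and Fras1 missed the threshold without granular library 2 (adjusted p = 0.0777).

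Division genes fell almost without exception. Of 32 DNA replication genes all were lower, with a median of -1.76, and of 30 mitosis genes 29 were lower, with a median of -1.83. Mcm2, a subunit of the replicative helicase, had 14.4, 15.2 and 11.3 CPM in granular libraries, against 63.8 to 126 (median 85.9) CPM in basal libraries (log2 fold change -2.64 ± 0.13, adjusted p = 5.43e-08). Cdt1, which licenses replication origins, had 3.62, 4.5 and 2.11 CPM in granular libraries, against 25.3 to 42.6 (median 32.2) CPM in basal libraries (log2 fold change -3.25 ± 0.21). Top2a, topoisomerase II alpha, had 23.7, 27.4 and 35.3 CPM in granular libraries, against 61.8 to 105 (median 84.3) CPM in basal libraries (log2 fold change -1.56 ± 0.12). No granular library reached the basal range in these genes. Ttk, a spindle checkpoint kinase, was the exception at 81.6, 62.4 and 62.6 CPM in granular libraries, against 11.1 to 26.1 (median 19.5) CPM in basal libraries (log2 fold change 1.86 ± 0.11), and spinous LRC libraries also averaged 69.1 CPM. Among 22 cyclins, inhibitors and pocket proteins 5 were higher and 8 lower. Ccnd1, cyclin D1, had 18.2, 34.6 and 15.5 CPM in granular libraries, against 157 to 224 (median 202) CPM in basal libraries (log2 fold change -3.17 ± 0.15). Cdkn1a, the inhibitor p21, had 274, 316 and 274 CPM in granular libraries, against 55.4 to 129 (median 84) CPM in basal libraries (log2 fold change 1.75 ± 0.11). Cdkn2b, the inhibitor p15, had 37, 37.9 and 25.1 CPM in granular libraries, against 3.03 to 6.73 (median 4.75) CPM in basal libraries (log2 fold change 2.76 ± 0.18). Chromatin regulators split evenly, with 7 higher, 7 lower and 7 neither. Uhrf1 (-2.67 ± 0.32) and Hells (-2.65 ± 0.15), which maintain DNA methylation at replication, were the lowest on the log2 scale, and Kdm5b, a histone demethylase, was the highest (1.12 ± 0.087).

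In the Notch list 6 of 16 tested members were higher and 4 lower, with a median of 0.16. The receptors Notch3, with 390.2, 349.6 and 395 CPM in granular libraries, against 85 to 117 (median 98.4) CPM in basal libraries (log2 fold change 1.96 ± 0.088), and Notch2 (1.39 ± 0.085) were higher. The ligands Jag2, with 57.7, 74.6 and 66 CPM in granular libraries, against 453 to 721 (median 611) CPM in basal libraries (log2 fold change -3.19 ± 0.11, adjusted p = 8.83e-09), and Dll1 (-2.38 ± 0.12) were lower. Hes1, a target gene, was higher (0.81 ± 0.073), and Notch1 did not pass the test (0.18 ± 0.087, adjusted p = 0.136). In the Wnt list 17 of 32 tested members were lower and 7 higher, with a median of -0.27. All 10 Wnt ligands tested were lower, among them Wnt10a with 12, 16.4 and 18 CPM in granular libraries, against 107 to 186 (median 159) CPM in basal libraries (log2 fold change -3.34 ± 0.17) and Wnt16 (-2.87 ± 0.15). Lgr6, an R-spondin receptor, had 15.7, 23.6 and 13.7 CPM in granular libraries, against 90.7 to 238 (median 154) CPM in basal libraries (log2 fold change -3.18 ± 0.12). The receptor Fzd7 (2.34 ± 0.15) and the feedback inhibitor Nkd2, with 93, 40.5 and 44.2 CPM in granular libraries, against 1.26 to 2.41 (median 1.97) CPM in basal libraries (log2 fold change 4.84 ± 0.22), were higher.

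Of 20 EGF receptor pathway genes tested 11 were higher and 2 lower, with a median of 0.68. The ligands diverged, since Btc, betacellulin, had 15, 24.3 and 9.04 CPM in granular libraries, against 0.572 to 1.32 (median 0.963) CPM in basal libraries (log2 fold change 4.08 ± 0.33), whereas Epgn, epigen, had 1.26, 5.83 and 5.25 CPM in granular libraries, against 32.1 to 51.2 (median 44) CPM in basal libraries (log2 fold change -3.50 ± 0.3). Neither ligand's groups overlapped. Erbb2 (1.10 ± 0.071) and Erbb3 (0.82 ± 0.083) were higher and Egfr did not pass the test (-0.09 ± 0.08, adjusted p = 0.415). The BMP and TGF-beta list was divided, with 10 higher, 10 lower and 10 neither. The higher ones include Tgfa, an EGF receptor ligand that is not of this pathway and is also counted in the EGF receptor list. Bmpr1b, a type I BMP receptor, had 4.15, 8.48 and 26 CPM in granular libraries, against 119.7 to 249.9 (median 145) CPM in basal libraries (log2 fold change -3.92 ± 0.34), and Tgfbr2 (-1.64 ± 0.086) and Bmp4 (-2.65 ± 0.14) were lower too, on the log2 scale. YAP and TEAD genes were lower in 8 of 15 and higher in 4, with Cyr61, a matricellular target, at 5.36, 17.6 and 8.68 CPM in granular libraries, against 29.2 to 158 (median 78.1) CPM in basal libraries. Immediate early genes were higher in 8 of 16 and lower in 1. Egr2 had 160.1, 270 and 161 CPM in granular libraries, against 4.16 to 27.5 (median 9.42) CPM in basal libraries (log2 fold change 4.19 ± 0.15, adjusted p = 9.72e-09), and Fos overlapped, with 303, 787 and 522 CPM in granular libraries, against 169 to 652 (median 455) CPM in basal libraries. Fos passed the test (adjusted p = 0.0127) but not without the replicate block (adjusted p = 0.618). It also missed the threshold against nLRC libraries alone (adjusted p = 0.0546) and without granular library 1 (adjusted p = 0.118). Interferon and MHC class I genes were lower in 12 of 22 tested members and higher in 1, with Psmb8, an immunoproteasome subunit, at 25.8, 27.9 and 30.8 CPM in granular libraries, against 44.4 to 78.2 (median 60.5) CPM in basal libraries (log2 fold change -1.08 ± 0.096).

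None of 28 ribosomal protein genes and none of 13 mitochondrially encoded mRNAs passed the edgeR test, with medians of -0.10 and -0.04 and 0 and 1 at an unadjusted p under 0.05 (DESeq2 called 0 and 0). Ribosome biogenesis genes were higher in 1 and lower in 4 of 25, and nuclear respiratory chain genes higher in 1 and lower in 5 of 28. Glycolysis and hypoxia genes were lower in 14 of 21 tested members and higher in 1, with a median of -0.44. Slc16a3, a lactate exporter, had 2.47, 5.83 and 1.97 CPM in granular libraries, against 9.06 to 35.2 (median 21.1) CPM in basal libraries (log2 fold change -2.67 ± 0.23). Hk2, hexokinase 2, was the higher member at 30.5, 58.6 and 31.2 CPM in granular libraries, against 8.38 to 20.5 (median 13.7) CPM in basal libraries (log2 fold change 1.47 ± 0.17). Of 12 bulge genes tested 4 were higher and 4 lower.

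Granular libraries were higher than LRC libraries in 2741 genes (17.7%) and lower in 2634 (17.0%), and they were higher than nLRC libraries in 2649 genes (17.1%) and lower in 2758 (17.9%). Both comparisons use the same granular libraries. In 4310 genes both tests were passed in the same direction and in 16 in opposite directions. Lists of barrier lipids (31 members higher against LRC, 29 against nLRC) and mitosis (29 lower against each) differed by at most 2 members. Of the sebocyte markers 11 were higher against LRC and 4 against nLRC.

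Spinous libraries came from the layer between these, but not every gene lay between them there. Over 745 genes at least 2-fold higher in granular libraries and with average log2 CPM of at least 3, spinous LRC libraries had covered a median of 68.6% of the log2 distance from the basal to the granular mean, and spinous nLRC libraries 26.7%. Over 835 genes at least 2-fold lower the medians were 69.8% and 32.2%. In spinous nLRC libraries 155 of the 745 genes lay at or beyond the basal level and 115 at or beyond the granular level. In spinous LRC libraries these were 56 and 56. Of the 835 genes, 169 and 39 did so in spinous nLRC libraries, and 2 and 97 in spinous LRC libraries. These values describe genes picked with the granular and basal libraries and carry no test. Krt1 and Krt10 had reached the granular level in spinous LRC libraries, at 104.9% and 105.1% of the distance, but only 12.4% and 3.2% in spinous nLRC libraries. Late envelope genes had not, with Lor at 32.2%, Flg at 43.6%, Ivl at 35.7% and Sprr4 at 13.7% in spinous LRC libraries. Krtdap (88.7%), Abca12 (84.4%) and Cyp4f39 (97.3%) stood with the keratins. Mki67 averaged 28.2 CPM in spinous LRC and 217 CPM in spinous nLRC libraries, the second above the basal libraries.

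Library-wide values were compared by the same exact permutation over all 9 libraries, without the pairing by replicate number. The 20 most abundant genes outside ribosomal features took 9.51, 8.88 and 9.29% of reads in granular libraries, against 9.81 to 11.4% in basal libraries (median 10.7%), without overlap (exact permutation test, two-sided p = 0.0238, adjusted p = 0.0595). Mitochondrially encoded mRNAs took 0.350, 0.363 and 0.406% of reads in granular libraries, against 0.310 to 0.452% in basal libraries (exact p = 0.6429). Genes with at least 1 CPM numbered 13542, 13713 and 13171 in granular libraries, against 13006 to 13624 in basal libraries (exact p = 0.4524). Among genes with long introns, the median share of reads outside exons was 46.6, 44.1 and 42.3% in granular libraries, against 39.2 to 50.6% in basal libraries (exact p = 0.9286). In both layers the libraries numbered 1 had the highest such share and those numbered 3 the lowest.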

How the data were processed

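RNA of antibody-sorted cells was made into libraries by a stranded total-RNA method for small inputs (SMARTer Pico v2), per the labels' protocols. The deposited tables give per gene the authors' raw read counts, TPM (scaled by transcript length) and RPKM (reads by exon length and depth), per the file headers. The build was mm10, per the submitters' processing notes. Aligner, counter and strand setting: not given in the sources used here. Overlapping and antisense genes, such as Zfp750 and Lamb3, and near-identical copies are therefore uncertain.

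Of 53715 gene names, 51843 matched GENCODE M21 (GRCm38). Counts of 9 libraries were filtered (filterByExpr, minimum count 10, minimum total 15), TMM-scaled and fitted with edgeR 4.0.16 (quasi-likelihood, R 4.3.3) with group and replicate number as terms. The contrast was granular minus the mean of both basal groups, with Benjamini-Hochberg adjustment. Printed CPM use TMM factors over 15 basal, spinous and granular libraries. Deviations from group means of same-numbered granular and basal libraries correlated at 0.167 to 0.283, those of different numbers at -0.237 to -0.0362, so the number was kept as a block. Intron shares compare reads with RPKM times exon length in 3894 genes. Counts were also simulated for this comparison, with 15450 genes simulated and 14997 fitted. There, 78% of genes changed by 2 and 63% of those changed by 1 on the log2 scale were recovered, with 11 false among 152 calls. Only 100 genes of each size were changed, and no replicate effect was simulated. In the data 39.5% of genes passed, so these rates need not hold there. Alternatives used DESeq2 1.42.0 and limma 3.58.1 on log2(TPM + 1). No 2 libraries of a group were duplicates by a chi-square test of counts. Genes named are the 15 largest rises and falls (past the test, no overlap, average log2 CPM of at least 3, no predicted genes), up to 6 members of each list by p, and 9 layer markers. Some genes within this rule are not reported here. Others named, such as those that go against their list, were chosen after their values were seen. The members and lists were chosen with earlier results of these data known.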

Additional observations from a re-analysis of the deposited data

How the results depend on the processing

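Of 15450 genes tested, 6100 passed. With all 18 back skin libraries in the fit, bulge included, the count was 3917 and that of lower genes 1807; 1 bulge library had 45.3% of its reads in ribosomal and 7SL features, and the cause was not tested. The pairing by replicate number was kept in that fit; with no replicate block 4838 genes passed, of which 4818 also passed with it, and the block changed the call of Fos among genes named above. DESeq2 called 6126, median-of-ratios scaling 6113, total reads without TMM 5995, 15 libraries 6189, no low count filter 6327 of 27099, LRC alone 4590, nLRC alone 5092, summed basal libraries 5191 and limma on TPM 4626 to 4997. Leaving out 1 library gave 5017 to 5828 genes, and leaving out a replicate number 4434 to 5397. Limma on log2(TPM + 1) and edgeR shared 4570 calls, 1 of them in opposite directions. Nid1 had a log2 fold change of -0.18 against nLRC alone, where the 3 nLRC libraries were higher than the LRC ones. Against LRC alone the sign also changed for Scube2 (1.21), Skint7 (-0.69) and Tgm7 (-0.68), genes described below for opposite changes, and Scube2, not past the main test, had -0.14 and 0.09 without replicate numbers 1 and 2. Grhl2, S100a16, Skint1, Skint7, Nid1, Tgm7 and Fos missed the threshold with 18 libraries. Leaving out 1 library at a time, the difference in the share of the epidermal differentiation complex ran between 0.0556 and 0.146 percentage points and that of the 20 most abundant genes between -1.61 and -1.27, with p = 0.0714 by the exact permutation test without any granular library, the smallest then possible. The difference in intron share, -0.433 in all libraries, ran between -1.56 and 0.734, so its sign was not determined. No scaling moved the median of all genes by over 0.1. Genes below about 1 CPM rest on few reads, and counts carry no molecular identifiers.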

Other observations

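The Skint genes of chromosome 4, which encode butyrophilin-like membrane proteins of keratinocytes, were described after their values were seen. Of 11 tested, 10 were higher in granular libraries and none lower, with a median log2 fold change of 2.91, against -0.027 over all genes tested. Skint5 had 894, 334 and 592 CPM in granular libraries, against 14.2 to 42.3 (median 26.4) CPM in basal libraries (log2 fold change 4.46 ± 0.18). Skint9 had 491, 307 and 368 CPM in granular libraries, against 9.43 to 19.5 (median 15.4) CPM in basal libraries (log2 fold change 4.72 ± 0.14). Skint1, whose product is known for selecting dendritic epidermal T cells, had 139, 139 and 163 CPM in granular libraries, against 66.7 to 126 (median 84.2) CPM in basal libraries (log2 fold change 0.71 ± 0.085). Skint11 did not pass the edgeR test (0.37 ± 0.16) but did with DESeq2 (adjusted p = 0.0306) and with limma on TPM (1.03, adjusted p = 0.000473). Skint7, called higher (0.30 ± 0.095), overlapped between groups and missed the threshold without the replicate block (adjusted p = 0.0542), with limma on TPM (adjusted p = 0.25) and with basal libraries summed per number (adjusted p = 0.823). Near-identical copies in this cluster may share reads.

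In 16 genes the granular libraries passed both tests in opposite directions against the 2 basal populations, which share the granular libraries. Scube2, a Hedgehog-binding secreted protein, had a log2 fold change of 1.19 against LRC and of -1.33 against nLRC libraries, with 11.5, 15.2 and 13.8 CPM in granular libraries, 6.03 CPM on average in LRC and 33.9 CPM in nLRC libraries. Tgm7, a transglutaminase, had log2 fold changes of -0.69 against LRC and 1.55 against nLRC libraries, with 32.5, 20.3 and 34.3 CPM in granular libraries, 45.7 CPM on average in LRC and 10.1 CPM in nLRC libraries.

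Library 3 had the lowest Lor, Flg and Hrnr of its group in each of the granular, spinous LRC, spinous nLRC, basal LRC and basal nLRC groups. For Hrnr these libraries held 21.4, 3.73, 4.96, 2.44 and 2.86 CPM in that order.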
